A study of Mus musculus with 19 samples.

Results

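Lactoferrin and 7 other secreted or surface proteins that guard wet epithelia were followed through 19 RNA-seq samples of reprogrammed grafts, prostate and fibroblasts. The 8 genes, of 23284 in the deposited tables, were Ltf, Lcn2, Pigr, Wfdc2, Slpi, Muc1, Defb1 and Reg3g. They were taken as a named list and looked up by symbol in both tables, where all 8 were found. The genes were chosen by values measured in these samples: Ltf leads the list because of its rise in grafts over mouse embryonic fibroblasts (MEFs), so the levels of these genes in grafts against MEFs are given as a description, with no test. Prostate was compared with grafts and with MEFs by tests, which share the graft and MEF samples that led to the choice of Ltf. The whole list was drawn up with earlier results of these data known, so the p-values of all 8 genes are not independent of the choice.

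Mucosal epithelia release proteins that bind iron, cut up or coat microbes, and restrain the proteases of inflammatory cells. Lactoferrin (Ltf) and lipocalin 2 (Lcn2) keep iron from bacteria, Pigr carries IgA across the epithelial cell, Wfdc2 and Slpi are small proteins of the whey acidic protein (WAP) family, Muc1 is a transmembrane mucin, Defb1 is a β-defensin and Reg3g is a lectin that kills Gram-positive bacteria. Ltf and Lcn2 are also stored in neutrophil granules, and Ltf and Lcn2 are both known as secretions of the male and female reproductive tracts. Many of these genes are induced by cytokines of the interleukin 17 and 22 families and by microbial products.

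Induced epithelial cells (iEpt) were made from MEFs with the pluripotency factors OSKM, and the iEpt+NAF cells also received lentiviruses for candidate regulators of prostate identity. These cells were combined with rat urogenital mesenchyme and grown for 6 weeks under the kidney capsule of male nude mice that carried a testosterone pellet. The samples were 5 iEpt+NAF grafts (FS002, FS003, FS005, FS007 and FS008), 6 wild-type prostates of 6-week-old C57BL/6 mice (FS009 to FS014) and 6 MEF cultures, labelled C57BL/6 and heterozygous for a LacZ allele (FS015 to FS020), all in 1 table, and 2 further grafts (FS022 and FS023) in a table normalized separately. The sample labels are the same for all 7 grafts, and FS022 and FS023 are taken as iEpt only grafts because the study lists the other 5 as iEpt+NAF. Each graft holds reprogrammed mouse cells, rat stroma and cells of the mouse host, and the values count reads assigned to mouse genes whichever of these they came from. The labels do not say that samples of a group came from separate animals or cultures, so that the p-values measure the spread between these samples. Some MEF values fell into pairs, FS015 with FS020, FS016 with FS019 and FS017 with FS018. Wfdc1, of the WAP family, was at 2.22 and 2.36, 5.71 and 5.93, and 6.31 and 6.13 in these pairs. Pigr did not pair so, at 4.98 and 1.79 in FS015 and FS020. Whether paired samples share a culture was not tested, and tests against MEFs treat all 6 as separate.

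The estimated number of reads on genes ranged from 16767287 to 26152338 in the first table and was 6629662 in FS022 and 9662056 in FS023. Values are log2 of normalized reads per gene. A gene with 3 reads lies at 1.68 to 2.34 in the first table, 3.12 in FS022 and 2.70 in FS023, and these floors cover counting error only. The 4 epithelial markers Krt8, Krt18, Epcam and Cdh1 summed to 21147 to 47924 normalized reads in the iEpt+NAF grafts and 36529 to 47999 in prostate. The 4 prostate secretory markers Pbsn, Sbp, Spink3 and Msmb summed to 1084807 to 2298976 in prostate and to 571 to 4339 in these grafts. In MEF samples FS015 to FS018 the same list summed to 920 to 3147, against 4 and 1 in FS019 and FS020. Some results that rest on MEFs are therefore also given without FS015 to FS018, while the differences of grafts minus MEFs use all MEF samples.

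Upstream sequence is shown for the genes with the largest gap between grafts and prostate (Ltf and Reg3g), for the one whose difference between them did not pass (Pigr) and for the mucin Muc1, with any motif match in capitals. Each line holds the 150 bases before the gene's start, 5′ to 3′ on the gene's own strand, from RefSeq in the assembly GRCm38.p6. Promoters were found for 7 of the 8 genes.
Ltf, chr9:111019142-111019291, plus strand: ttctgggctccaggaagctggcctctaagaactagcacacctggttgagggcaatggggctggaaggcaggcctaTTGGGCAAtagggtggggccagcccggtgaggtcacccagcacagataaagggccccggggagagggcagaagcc
Pigr, chr1:130826534-130826683, plus strand: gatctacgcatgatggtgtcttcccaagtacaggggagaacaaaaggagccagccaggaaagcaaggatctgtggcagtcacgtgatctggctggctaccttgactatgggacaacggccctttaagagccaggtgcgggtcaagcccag
Muc1, chr3:89228906-89229055, plus strand: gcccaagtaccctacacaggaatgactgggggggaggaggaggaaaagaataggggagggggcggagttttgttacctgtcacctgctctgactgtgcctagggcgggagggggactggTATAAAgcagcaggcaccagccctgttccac
Reg3g, chr6:78468875-78469024, minus strand: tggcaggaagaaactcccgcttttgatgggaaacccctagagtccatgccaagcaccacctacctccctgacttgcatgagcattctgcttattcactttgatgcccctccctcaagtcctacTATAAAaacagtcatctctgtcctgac
Among 5 motifs searched on both strands, TATAAA (the TATA box) lay 31 bases before the start of Muc1 and 27 before that of Reg3g, and is held by 7.57% of 32851 promoters cut to the same length. TTGCNNAA, for C/EBP factors, matched Ltf on the other strand as TTGGGCAA, 75 bases before the start (5.46% of promoters). No match overlapped another. TGTTTNC for FOXA (10.3% of promoters), an NF-kB motif (GGG and TTCC with 3 free bases between them, 3.05%) and TTCNNNGAA for STAT factors (4.09%) had no match in these 7 windows.

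Ltf was high in every graft and close to the floor in prostate and MEFs. It lies on chromosome 9 from 110921796 to 110945270 in mm9, on the plus strand, with 17 exons in its longest transcript (GENCODE M1). Its log2 value was 15.39 in FS002, 15.77 in FS003, 13.87 in FS005, 15.48 in FS007 and 12.91 in FS008. In prostate it ranged from -1.69 through a median of 1.78 to 6.55, and in MEFs from -1.09 through 1.33 to 3.16. The grafts stood apart from every other sample: the lowest graft, FS008, was above the highest prostate sample, FS009. Ltf took 0.385% of all reads on genes in FS003 and 0.0496% in FS008. Its mean over the 5 grafts was 14.68 ± 1.23 (SD, n = 5), against 2.09 ± 2.63 (SD, n = 6) for prostate and 1.22 ± 1.70 (SD, n = 6) for MEFs. Only FS009 and FS013 among the 6 prostates, and FS019 and FS020 among the 6 MEFs, were above the value of 3 reads.

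One prostate sample made up nearly all of the Ltf signal of that group. FS009 held an estimated 77 Ltf reads against at most 4 in any other prostate. On the linear scale the prostate mean of Ltf was 18.2 with FS009 and 3.19 without it, while the graft mean was 33300. FS009 was the highest prostate sample for 3 of the 6 listed genes called lower in prostate, Ltf, Wfdc2 and Reg3g, but not for Lcn2, Slpi or Muc1, and for 16 of the 40 related genes called lower. Among genes high in grafts, Kap, an androgen-regulated kidney protein, was at 6.12 in FS009 against at most 0.37 in the other 5, Dmbt1 at 5.01 against 1.71, Reg3g at 4.67 against 1.82 and Reg3b at 4.06 against 0.55. Whether the Ltf reads of FS009 came from that prostate itself was not tested. The Ltf difference, prostate minus grafts, was -12.59 in log2 units with an SE (standard error) of 1.15, a size that depends on the scatter of prostate values near the floor.

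**Figure D1:**
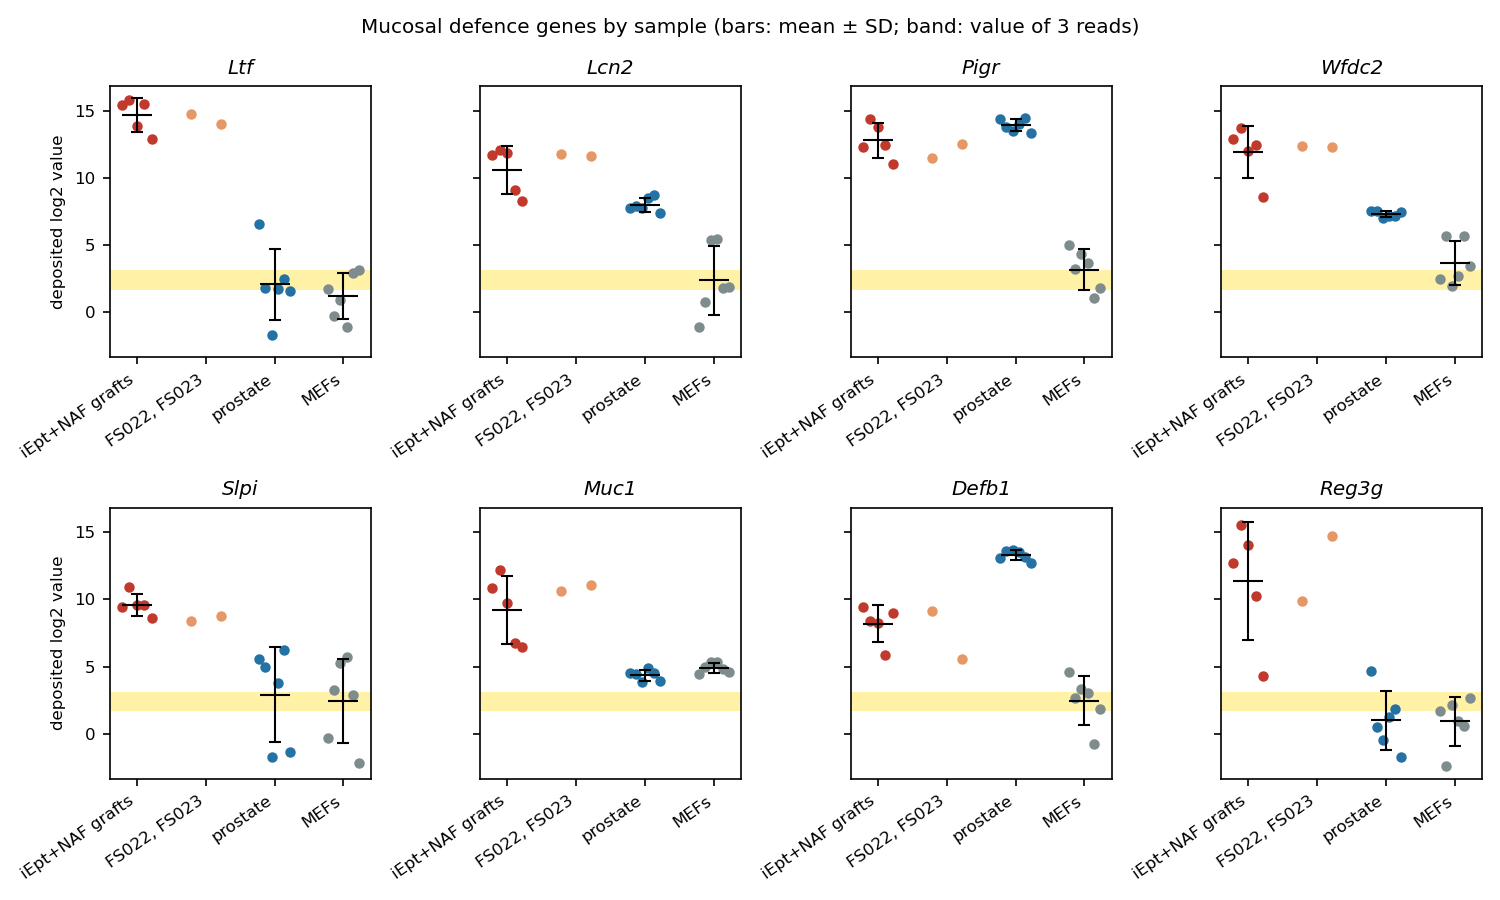
Deposited log2 value (y axis) of the 8 genes in each sample, by group (x axis), with bars for the mean ± SD of groups of 5 or 6 samples and a band at the value of 3 reads. Ltf lies at 12.91 or more in every graft and mostly inside or below the band in prostate and MEFs, whereas Defb1 lies at 12.74 or more in every prostate sample.

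The second iron protein, Lcn2, which binds bacterial siderophores, was present in prostate as well. It lies on chromosome 2 from 32240153 to 32243317 on the minus strand. Its log2 value was 11.69, 12.06, 11.86, 9.13 and 8.26 in the grafts in the order FS002, FS003, FS005, FS007 and FS008, and in prostate ranged from 7.37 through a median of 7.84 to 8.75. FS008 lay within the prostate range and the other 4 grafts above it. Prostate minus grafts was -2.59 in log2 units (SE 0.67, adjusted p = 0.00666; exact permutation test over 462 splits, p = 0.00649). Prostate is a tissue of cell mixtures, as are the grafts, and in such samples fewer cells of a type and less RNA per cell cannot be told apart.

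Pigr, the receptor that delivers IgA into secretions, was high in both tissues. The gene lies on chromosome 1 from 132723261 to 132748826 on the plus strand. Grafts FS002 to FS008, in the same order, had log2 values of 12.33, 14.38, 13.76, 12.48 and 11.07, and prostate ranged from 13.35 through a median of 13.90 to 14.44. FS003 and FS005 lay inside the prostate range and the other 3 grafts below it. The difference of prostate over grafts was 1.10 (SE 0.50, 95% interval 0.00 to 2.20), which did not pass (adjusted p = 0.0815; exact permutation test, p = 0.0866). Without FS003 it was 1.5 (adjusted p = 0.0143 from limma) and without FS005 it was 1.34 (adjusted p = 0.0497 from limma), both of which passed.

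The 2 WAP proteins of the list were each higher in every graft than in every prostate sample. Wfdc2, also known as HE4 and abundant in the epididymis and airway, lies on chromosome 2 from 164387913 to 164394010 on the plus strand. It was at 12.89, 13.70, 12.00, 12.47 and 8.59 in the grafts and at 7.05 to 7.52 in prostate, with a median of 7.29. The lowest graft was again FS008, and the prostate samples lay within 0.47 of each other. Wfdc2 was lower in prostate, by a difference of -4.63 (SE 0.71, adjusted p = 0.000247; exact permutation test, p = 0.00216, the smallest that 5 samples against 6 allow).

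Slpi, an inhibitor of neutrophil elastase, lies on the same chromosome from 164179806 to 164214831 on the minus strand. Its graft values were 9.42, 10.90, 9.55, 9.57 and 8.62, the narrowest spread of the 8 genes over the grafts (SD 0.82). Prostate values ran from -1.70 through a median of 4.38 to 6.24, and 2 of the 6 samples, FS011 and FS014, were below the value of 3 reads. The groups did not overlap, and Slpi was lower in prostate by a difference of -6.69 (SE 1.45, adjusted p = 0.00237; exact permutation test, p = 0.00433).

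Muc1, a mucin fixed in the apical membrane, split the grafts. It lies on chromosome 3 from 89032979 to 89037303 on the plus strand. Its log2 value was 10.85 in FS002, 12.17 in FS003 and 9.77 in FS005, but 6.74 in FS007 and 6.49 in FS008. Prostate ranged from 3.86 through a median of 4.47 to 4.91, below all 5 grafts. Prostate minus grafts was -4.85 (SE 0.92, adjusted p = 0.00105; exact permutation test, p = 0.00216).

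Defb1 went the other way. This constitutive β-defensin of urogenital epithelia lies on chromosome 8 from 22887071 to 22905657 on the plus strand. It was at 9.44, 8.39, 8.23, 5.88 and 8.96 in the grafts and ranged from 12.74 through a median of 13.32 to 13.69 in prostate. Every prostate sample was above every graft, and FS007 was the lowest graft. Prostate minus grafts was 5.10 (SE 0.52, adjusted p = 1.36e-05; exact permutation test, p = 0.00216).

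Reg3g varied most between grafts. The gene lies on chromosome 6 from 78416262 to 78418868 on the minus strand. Its log2 value was 12.74 in FS002, 15.56 in FS003, 14.03 in FS005, 10.28 in FS007 and 4.27 in FS008, a span of 11.29 that runs from an estimated 20 reads in FS008 to 74473 in FS003. In prostate it ranged from -1.71 through a median of 0.87 to 4.67, with only FS009 above the value of 3 reads and above graft FS008. Prostate minus grafts was -10.37 for Reg3g, given with no p because the gene entered the test only through the grafts, with a linear mean of 5.62 in prostate and 14600 in grafts.

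Reg3g has relatives beside it. Reg3b, Reg3a, Reg1 and Reg3g lie within 97990 bases on chromosome 6, from 78320879 to 78418868. Reg3b, a lectin directed at Gram-negative bacteria, was at 9.15, 15.47, 14.17, 3.51 and 5.11 in the 5 grafts, and Reg1 at 7.45, 12.37, 9.37, 2.99 and 2.12. FS003 and FS005 were the highest graft pair for each of these genes, and for Reg3a, at 6.96 and 5.93. How reads shared by near-identical relatives were counted is not stated, and the levels of Reg3b and Reg3g are uncertain to that extent.

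Of the 8 genes, 7 passed in prostate over grafts, where 33.3% of the 16353 genes tested passed. Of these, 1 was higher in prostate, Defb1, against 10.3% of all genes called higher, and 6 were lower, Ltf among them, against 23.0% of all genes called lower. The groups did not overlap for 5 of the 7, and 23.8% of all genes tested passed with no overlap. All 8 passed the filter on low values. Reg3g did so only through the grafts and so had to differ, and Ltf reached a linear mean of 10 in prostate through FS009 alone. The median difference over the 8 genes was -4.74, and -0.11 over all genes tested. With quantile normalization the calls of all genes moved from 1683 higher and 3757 lower to 3112 higher and 2445 lower in prostate, while the 8 genes gave the same counts, 1 higher and 6 lower.

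Per kilobase of the longest transcript, the order of the genes also differed between the tissues. In the grafts the median level per kilobase was 15600 normalized reads for Ltf, 8850 for Reg3g, 6670 for Wfdc2, 2400 for Lcn2, 1480 for Pigr, 854 for Slpi, 389 for Muc1 and 384 for Defb1. In prostate the order began with Defb1 at 11800 and Pigr at 3990, followed by Wfdc2 at 184 and Lcn2 at 166. Slpi was at 24.3 in prostate, Muc1 at 9.15, Reg3g at 0.835 and Ltf at 0.734.

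Prostate was then compared with MEFs, to see which of these genes lie above their level in these cultured embryonic fibroblasts. Tissue, age, culture and genotype differ together in this comparison and cannot be told apart. Of the 7 genes that passed the filter, 4 were called higher and none lower, where 48.3% of 14560 genes were called in either direction, 27.8% higher and 20.5% lower. Pigr was above all MEFs in every prostate sample, with a difference of 10.73 (SE 0.57, adjusted p = 1.77e-09). Defb1 was likewise above all MEFs, with a difference of 10.82, and is given with no p. It entered the test only through prostate and so had to differ, with a linear mean of 10200 in prostate and 8.92 in MEFs. Lcn2 was higher by 5.64 (SE 0.97, adjusted p = 0.000129) and Wfdc2 by 3.65 (SE 0.62, adjusted p = 0.000109), both with no overlap between the groups. For Pigr, Lcn2 and Wfdc2 the exact permutation test over 924 splits gave p = 0.00216, the smallest that 6 samples against 6 allow. The tests count the 6 MEF samples as separate, although some of their values fell into pairs, so these p-values may be too small. The median difference was 2.26 over the 8 genes and 0.17 over all genes tested.

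The other 4 genes were not called. Ltf differed by 0.87 (95% interval -1.68 to 3.42, adjusted p = 0.504) and Slpi by 0.49 (95% interval -3.26 to 4.24, adjusted p = 0.801), with overlap between the groups. Ltf entered this test through FS009 alone, and without that sample it did not pass the filter. Without MEF samples FS015 to FS018 the Ltf difference was -0.93. Muc1 was at 3.86 to 4.91 in prostate and 4.45 to 5.38 in MEFs, a difference of -0.58 (95% interval -1.11 to -0.04, adjusted p = 0.0454) that was below the minimum size of 1. With quantile normalization it was -1.59 and passed as lower in prostate (adjusted p = 0.000116 from limma). Reg3g did not pass the filter and its difference was 0.08.

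MEF values of Pigr and Defb1 moved with those of abundant prostate transcripts. Pigr was at 4.98, 3.25, 4.34 and 3.65 in FS015 to FS018, but at 1.03 and 1.79 in FS019 and FS020, where it was below the value of 3 reads. In FS015 to FS018 Pigr lay 8.93 to 10.66 below the prostate mean and Defb1 8.66 to 10.59 below it. Pbsn, the prostate secretory protein probasin, lay 9.05 to 11.01 below in the same 4 samples, and Msmb 8.76 to 10.94 below. Whether these reads came from the MEF cultures themselves was not tested, so the MEF levels of Pigr and Defb1 are uncertain. The count of 4 genes called was the same without FS015 to FS018.

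The grafts exceeded the MEFs in every one of the 8 genes. This comparison led to Ltf, and the list was drawn up with earlier results of these data known. The mean difference was 13.46 for Ltf, 10.44 for Reg3g, 9.63 for Pigr, 8.28 for Wfdc2, 8.23 for Lcn2, 7.18 for Slpi, 5.72 for Defb1 and 4.27 for Muc1. The smallest gap between the lowest graft and the highest MEF sample was 1.11, for Muc1, and the largest 9.75, for Ltf. In this comparison 29.9% of 16121 genes were called higher and 12.0% lower.

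The 2 grafts of the second table carried the same secretions. In FS022 and FS023 the log2 value was 14.77 and 14.01 for Ltf, 11.81 and 11.64 for Lcn2, and 12.38 and 12.31 for Wfdc2. Pigr was at 11.49 and 12.52, Slpi at 8.37 and 8.73, and Muc1 at 10.59 and 11.09. These 6 genes differed between the 2 grafts by about 1 or less, whereas Reg3g was at 9.87 in FS022 and 14.74 in FS023, and Defb1 at 9.14 and 5.57. The tables were normalized separately, and no test was made between them.

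Since several of these proteins are made by cells other than gland epithelium, marker lists were read beside them in each graft. The neutrophil list summed to 293 normalized reads in FS008, 706 in FS002, 948 in FS005, 1127 in FS007 and 2598 in FS003, with 337 in FS022 and 3482 in FS023, against 119 to 221 in prostate and 20 to 228 in MEFs. Of its 11 genes found, 5 were above 3 reads in all 5 iEpt+NAF grafts, and the granule genes Ngp and Elane were at or under 3 reads in all of them. In FS022 and FS023 Ngp, Camp, Elane, Mpo and Ctsg were at or under 3 reads. Cd177, a neutrophil surface protein, was at 7.19 to 10.59 in the iEpt+NAF grafts and at most 2.09 in prostate. It was the highest gene of the list in FS003, FS005, FS007 and FS008, so the sums of these grafts rest in large part on it. Its Pearson r with Ltf over the 17 samples of the first table was 0.967, so the sum is not independent of the Ltf pattern. Csf3r and Cxcr2 were also higher in each of these grafts than in any prostate sample, and the other genes of the list overlapped. Mmp8 leaned the other way, at 2.96 to 5.07 in these grafts and 4.93 to 6.39 in prostate. FS008 was the lowest and FS003 the highest of the 5 grafts both for this list and for 7 of the 8 genes, all but Defb1. The order of the other 3 grafts differed, with Ltf at 15.39 in FS002 and 13.87 in FS005. The part of neutrophils in the values was not tested.

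Kidney and airway or gut markers varied more widely than the neutrophil list. The 10 kidney genes summed to 1621 in FS003, 7389 in FS007, 85986 in FS002, 169752 in FS008 and 176643 in FS005. Of these 5 grafts, Ltf was highest in the one with the least kidney signal and lowest in one of the 2 with the most. FS022 and FS023 went the other way, with kidney sums of 37620 and 3012 and Ltf at 14.77 and 14.01. The airway and gut list, 9 genes found, summed to 64552 in FS003, 22851 in FS005, 14346 in FS002, 5298 in FS008 and 4173 in FS007. The 3 grafts highest in that list were also the 3 highest for Lcn2, Muc1 and Reg3g. The list is not independent of the secretions, since its genes Bpifa1 and Muc5b are also among the related secretion genes. Bpifa1 was its highest gene in these 3 grafts, at 12.73 in FS002, 15.32 in FS003 and 13.37 in FS005. FS022, at 814 for the same list, had Lcn2 at 11.81 and Muc1 at 10.59. The B and plasma cell list summed to 746 in FS007 and 40 to 133 in the other 4 grafts, 45 to 143 in prostate and 3 to 8 in MEFs, and Igj, the J chain that Pigr binds in polymeric IgA, was at 9.29 in FS007 and 4.47 to 6.22 in the other 4. The part of these cell types was not tested.

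**Figure D2:**
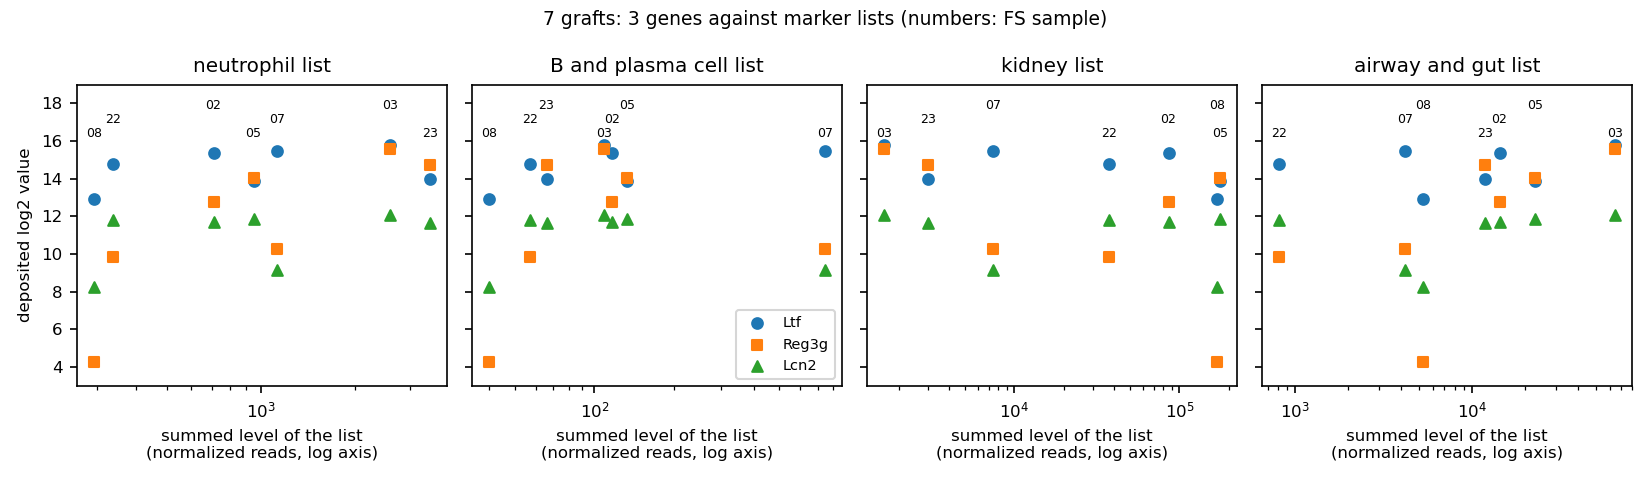
Deposited log2 value of Ltf, Reg3g and Lcn2 (y axis) in 7 grafts against the summed level of 4 marker lists in normalized reads (x axes, log scale), with FS sample numbers at the top. Reg3g falls to 4.27 in FS008, which has the lowest neutrophil sum, 293. Ltf is also lowest in FS008, at 12.91, and is highest in FS003, at 15.77. FS022, with a neutrophil sum of 337, has Reg3g at 9.87 and Ltf at 14.77. FS023, with the highest sum, 3482, has Reg3g at 14.74 and Ltf at 14.01.

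Related secretion genes were read from 6 lists that hold 86 genes of the tables under 95 names, some of them older symbols of the same gene. Of 73 that passed the filter in prostate over grafts, 9 were higher in prostate (10.3% of all genes were), 40 were lower (23.0% of all genes) and 24 were not called, a median difference of -2.68. Of the 39 with a linear mean of at least 10 in prostate, 9 were higher, 10 lower and 20 not called, and the other 30 of the 40 entered the test through the grafts. In prostate over MEFs, 39 related genes were tested, of which 24 were higher in prostate and 5 lower (27.8% and 20.5% of all genes). Of the 39, 38 had a linear mean of at least 10 in prostate. Genes near the floor in MEFs, such as Muc19 at no more than 0.81, entered only through prostate and so had to be higher. How many of the 24 did so was not counted. In grafts over MEFs, the comparison that led to Ltf and so a description here, 52 of 70 were called, 51 of them higher in the grafts (29.9% of all genes). Genes near the floor in MEFs entered here only through the grafts. Without FS015 to FS018, 34 of 72 were called, and calls over all genes fell as well, from 6757 of 16121 to 4567 of 16434.

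Antimicrobial proteins made up the largest list, with 2 of 24 tested higher in prostate (10.3% of all genes), 17 lower (23.0% of all genes) and 5 not called, and 14 of the 17 entered the test only through the grafts. Ang, a secreted ribonuclease, was at 5 to 6.87 in the grafts and 8.19 to 9.64 in prostate, a difference of 3.11 (SE 0.35, adjusted p = 2.78e-05). It shares its promoter with Rnase4, which was at 8.78 to 11.07 in grafts and 10.51 to 11.26 in prostate and did not pass (0.99, adjusted p = 0.0221, below the minimum size of 1). The 3 genes with the most negative difference and no overlap were among those that entered through the grafts. Dmbt1, a scavenger receptor protein that agglutinates bacteria, was at 6.27 to 15.32 in grafts and -1.13 to 5.01 in prostate. Sftpd, a collectin of lung fluid, was at 2.20 to 10.66 and -2.52 to 1.26, and Bpifb1, a lipid-binding airway secretion, at 2.50 to 13 and -1.18 to 1.31. Bpifb1 was above 11 in FS002, FS003 and FS005 and at 4.40 and 2.50 in FS007 and FS008.

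Of 7 iron and acute phase proteins, 6 were called lower in prostate, 3 of them entering only through the grafts, and none higher, where 23.0% and 10.3% of all genes were so called. Hp, which binds free haemoglobin, was at 7.81 to 11.70 in grafts and 3.27 to 6.01 in prostate (-5.55, SE 0.74, adjusted p = 9.23e-05). Saa3, a serum amyloid A made outside the liver, entered through the grafts, at 6.85 to 8.90 against 0.69 to 4.19 in prostate. Mfi2, the membrane relative of lactoferrin and transferrin, also entered through the grafts. It was at 9.54 in FS003, 2.75 to 5.43 in the other grafts and -0.97 to 2.23 in prostate. Its call was lost with quantile normalization or a pseudocount of 10, and without FS003 the gene did not pass the filter. Cp, the copper oxidase ceruloplasmin, was at 10.13 to 11.27 in grafts and 10.00 to 10.67 in prostate and did not pass (-0.31, adjusted p = 0.248).

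Of 10 WAP genes tested, 3 were called higher in prostate and 6 lower (10.3% and 23.0% of all genes), and all 6 entered the test only through the grafts. Wfdc3 was at 3.15 to 8.31 in grafts and 12.10 to 14.31 in prostate, a difference of 6.93 (SE 0.86, adjusted p = 5.6e-05). Spinlw1, the eppin of semen that coats sperm, was at 0.79 to 2.76 in grafts and 3.63 to 4.62 in prostate, through which it entered the test. Expi, a WAP protein known from mammary gland, was at 6.37 to 11.53 in grafts and 0.26 to 2.18 in prostate. Wfdc12 was at 5.10 to 11.23 and -0.74 to 3.77, and Wfdc5 at 2.94 to 6.60 and -2.72 to 1.86.

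Of 11 mucin and trefoil genes, 6 were called lower in prostate (23.0% of all genes), 1 higher (10.3%) and 4 not, and all 6 entered the test only through the grafts. Muc5b, a gel-forming mucin of airways, was at 8.96 to 12.78 in grafts and -2.13 to 3.08 in prostate. Muc4, a membrane mucin like Muc1, was at 9.47 to 11.38 and 2.05 to 4.18, and unlike Muc1 it was highest in FS007 and FS008. Tff2, a trefoil peptide of gastric mucus, was at 5.89 to 12.83 and -1.54 to 2.90. Agr2, a disulfide isomerase needed for mucin folding, was the one higher in prostate, at 13.69 to 14.41 against 9.22 to 11.75 in grafts (3.61, SE 0.39, adjusted p = 2.24e-05).

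Of 17 receptors and regulators that induce such secretions, all at a linear mean of 10 or more in both groups, 2 were called higher in prostate, 4 lower and 11 not, a share near the 33.3% of all genes called. Elf3, an epithelial factor that acts on inflammatory genes, was at 11.62 to 13.11 in grafts and 9.08 to 9.89 in prostate (-2.68, SE 0.25, adjusted p = 7.31e-06). Its relative Ehf was at 10.80 to 12.83 in grafts and 13.69 to 14.49 in prostate (2.11, adjusted p = 0.000244). The interleukin 17C receptor subunit Il17re was higher in prostate (1.34, adjusted p = 0.000308), Tlr2 (-2.10, adjusted p = 0.00434) and Cebpb (-1.70, adjusted p = 0.000252) were lower, and Il22ra1 did not pass (-1.01, adjusted p = 0.0826). Of 4 receptors and IgA partners tested, 1 was called higher in prostate, 1 lower and 2 not (10.3% of all genes higher, 23.0% lower). Slc22a17, the Lcn2 receptor, was higher in prostate (1.40, adjusted p = 0.037). The groups overlapped, at 7.28 to 10.07 in grafts and 10.00 to 10.81 in prostate, with FS007 and FS008 the lowest grafts. Lrp2, a clearance receptor of the proximal tubule that is also in the kidney list, entered through the grafts, at 7.07 to 12.99 against 0.37 to 4.18 in prostate.

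**Figure D3:**
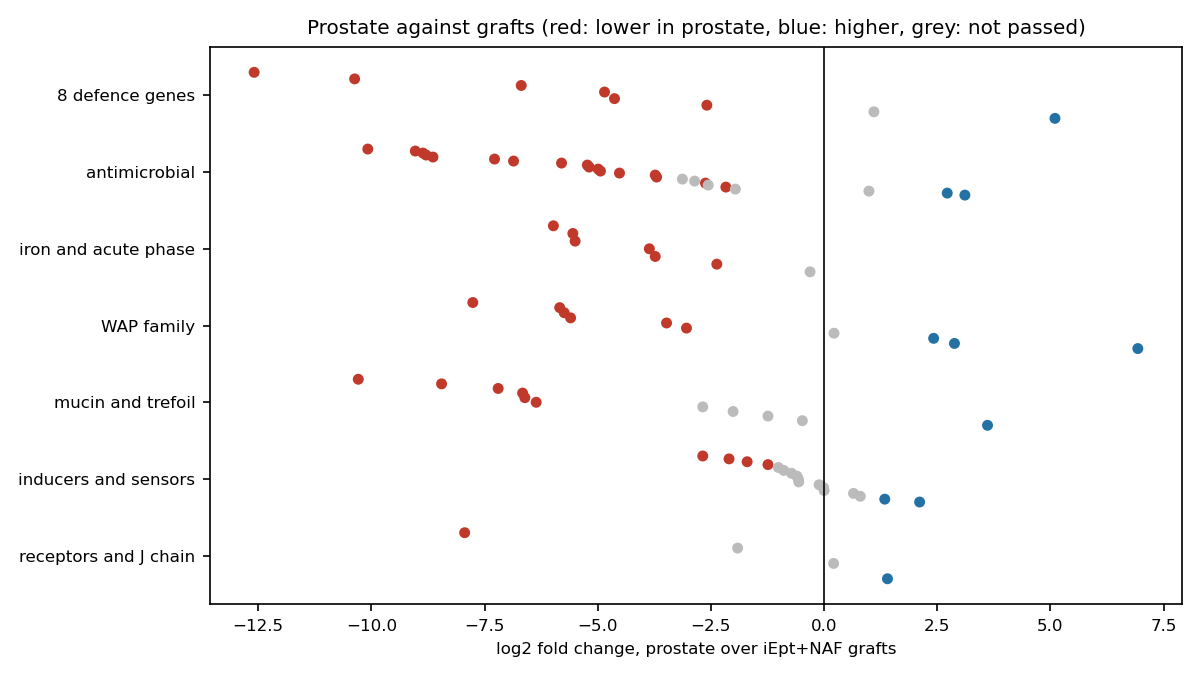
Log2 fold change of prostate over iEpt+NAF grafts (x axis) for the 8 genes and the 6 related lists (y axis), 1 point for each gene tested, with genes that passed as lower in prostate in red, as higher in blue and others in grey. The points run from -12.59 for Ltf to 6.93 for Wfdc3, and the red points of the WAP and mucin rows are all genes that entered the test only through the grafts.

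**Figure D4:**
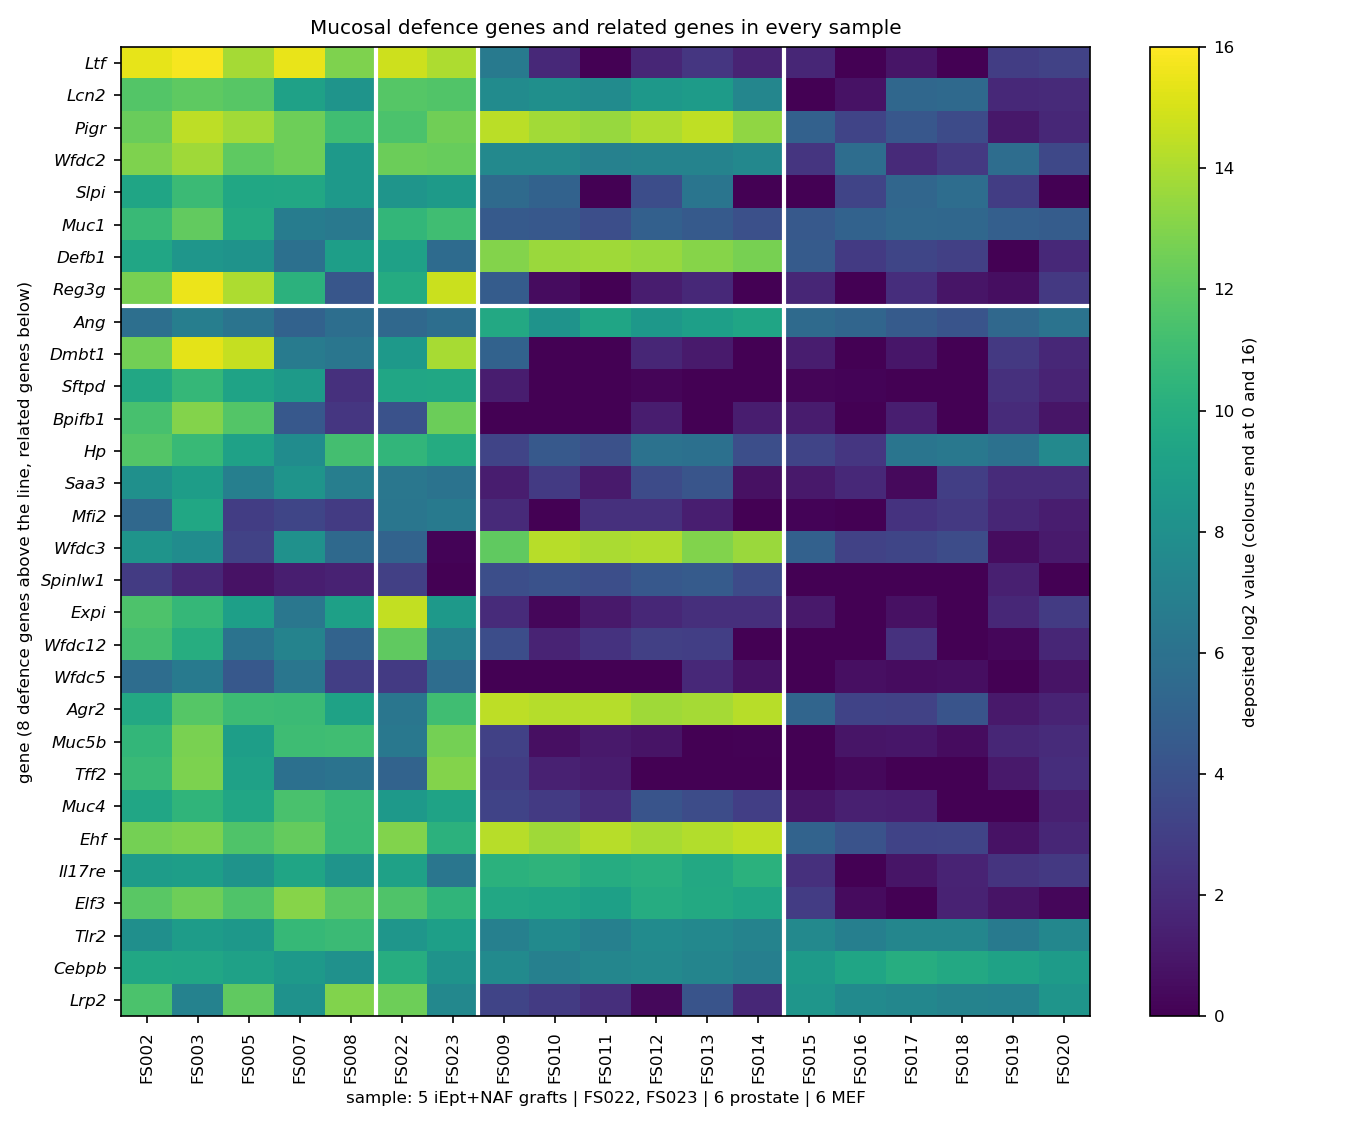
Deposited log2 value (colour, ending at 0 and 16) of the 8 genes and of the named related genes (y axis) in each of 19 samples (x axis), with lines between groups. Pigr, Defb1, Wfdc3, Agr2 and Ehf are bright in prostate, whereas Ltf is bright in all 7 grafts and Reg3g and Dmbt1 in some of them.

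The genes closest in pattern to Ltf were not those of the list. Over the 17 samples of the first table and 16101 genes, the largest Pearson r with Ltf belonged to Aqp3 (0.975), Tmie (0.974), Cd177 (0.967), Ifi202b (0.964) and Fam108b (0.959). Aqp3, a glycerol and water channel of epithelia, was at 9.38 to 11.47 in grafts and 0.73 to 2.51 in prostate. Over the 11 samples of prostate and grafts alone they were Ifi202b (0.990), Bri3 (0.988), Cwh43 (0.985), Dmrt2 (0.982) and Nck2 (0.981). Of the listed genes, Reg3g had an r of 0.916 over 17 samples, Wfdc2 0.847, Muc1 0.836, Slpi 0.777, Lcn2 0.643, Pigr 0.423 and Defb1 0.061. These values describe samples that fall into separate groups and share their libraries, and they mostly restate which genes are high in grafts.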

How the data were processed

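Mouse RNA-seq of 19 samples was used: 7 grafts, 6 prostates and 6 MEF cultures. Per the submitters' processing notes, bcl2fastq 1.8.4, TopHat, Cufflinks, DESeq and mm9 were used. The authors deposited log2 values of DESeq-normalized reads, in tables of 17 and 2 samples with 23284 genes each. High values equalled whole reads times a constant of the sample within 0.1 reads, which gave the depth, and low values carry added scatter. The library kit does not mark strand. The 8 genes and all gene lists were chosen with earlier results of these data known.

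Each pair of groups was fitted by limma 3.58.1 (R 4.3.3, eBayes with trend) to the deposited log2 values of genes whose linear mean reached 10, with Benjamini-Hochberg adjustment over all genes fitted. A gene was called with an adjusted p under 0.05 and a difference of 1 log2 unit or more. Exact permutation tests, two-sided, were run over the samples for single genes. The script was tested on simulated data. Named related genes are up to 3 per list and direction with the largest change in prostate over grafts and no overlap; a few others (Rnase4, Cp, Il22ra1, Slc22a17, Reg3b, Reg1, Igj) were added after their values were seen. Alternatives changed the filter, scaling, samples fitted, minimum fold and pseudocount, and left out single samples. Calculations ran in Python 3.11.15 (scipy 1.17.1, pandas 2.3.3, numpy 2.4.6; figures in matplotlib 3.10.9). Positions are from GENCODE M1. Results for some items are not reported here.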

Additional observations from a re-analysis of the deposited data

How the results depend on the processing

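In prostate over grafts 7 to 8 of the 8 genes were called when single samples were left out, and 7 under each other alternative run. In prostate over MEFs it was 4 to 4 when single samples were left out, 5 with quantile normalization or no minimum fold change (Muc1 added), and 4 otherwise. For related genes, leaving out single samples gave 44 to 57 calls in prostate over grafts, 26 to 30 in prostate over MEFs and 48 to 58 in grafts over MEFs. The last count fell from 52 to 34 without MEF samples FS015 to FS018, where fewer samples were fitted. Calls over all genes fell in the same setting from 6757 of 16121 to 4567 of 16434.

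Over single genes, 664 of 676 values under an alternative kept their direction and their side of the threshold, 2 lost the call, 4 gained it and 6 changed sign. A gene that failed the filter under an alternative gave no value and is not among the 676. Examples were Mfi2 without FS003 and Spinlw1 without FS012 or FS013 in prostate over grafts, and Ltf without FS009 in prostate over MEFs. In prostate over MEFs, Ltf was at -0.93 without FS015 to FS018. Slpi in the same comparison was at -0.34 with quantile normalization, and -0.44 to 1.41 when single samples were left out, below 0 without FS009 (-0.04), FS013 (-0.18), FS015 (-0.07) or FS020 (-0.44). None of the values below 0 passed, and the cause was not tested. Quantile normalization moved the median of all genes from -0.11 to 0.134 in prostate over grafts, from 0.171 to -0.003 in prostate over MEFs and from 0.262 to -0.186 in grafts over MEFs, where calls went from 4815 higher and 1942 lower to 2830 and 3827; in prostate over MEFs they went from 4044 and 2982 to 3315 and 3585.

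No paired analysis was possible because the labels give no replicate numbers. Some MEF values fell into pairs of samples, and leaving out a single MEF sample keeps the other of its pair. Prostate values of Ltf and Reg3g lie near the value of 3 reads, so the size of their fold changes rests on scatter at that depth.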

Other observations

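Of 67 related genes above 3 reads in FS022 or FS023, the grafts of the second table, 47 differed between them by more than Ltf did (0.76) and 20 by no more than that. The genes below were picked for the size of their gaps after the values were seen. Expi was at 14.54 in FS022 and 8.66 in FS023, and Wfdc12 at 12.09 and 6.94. Some mucus genes were higher in FS023: Muc5ac was at -0.16 in FS022 and 10.23 in FS023, Muc5b at 6.40 and 12.63, Tff2 at 5.10 and 13.04, and Agr2 at 6.28 and 11.12. Others of that list were higher in FS022, with Muc19 at 7.73 and 6.93, Muc20 at 8.32 and 7.15, and Fcgbp at 11.33 and 10.49. Sftpd at 9.47 and 9.54 and Saa3 at 6.34 and 6.09 were among the genes with small gaps. The airway protein Bpifa1 was at -0.47 and 11.46, and Bpifb1 at 4.05 and 12.40. A gene with 3 reads lies at 3.12 in FS022 and 2.70 in FS023. With 1 sample of each pattern and a table of their own, these values carry no test.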
